A study of Homo sapiens with 12 samples.

Results

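The genes that receive the LPS signal at the cell surface and pass it inward were 10 of the 28901 named genes counted by RNA-seq. They were *TLR4*, *LY96* and *CD14* (the receptor complex), *MYD88*, *TIRAP* and *TICAM1* (the adaptors), and *IRAK1*, *IRAK2*, *IRAK3* and *TRAF6* (the kinases and ubiquitin ligase that follow). They were taken by name and role, with earlier results of these data known, and all 10 passed the count filter in every comparison. The cells were ASC52telo hTERT, human adipose stromal cells made immortal with telomerase, differentiated to adipocytes for 14 days and carrying a lentiviral vector with ZsGreen and sorted for that marker. Scramble control cells expressed a scramble shRNA, and linc-ADAIN KD cells expressed 1 shRNA against linc-ADAIN, a long intergenic non-coding RNA. Each was left without LPS or given LPS at 100 ng/mL for 4 h, with 3 libraries in each of the 4 groups. All cells had the same 7 days of differentiation medium and 7 days of maintenance medium. The study describes its RNA-seq of the knockdown as a single experiment in triplicate, so n counts libraries and not independent experiments. The knockdown rests on a single shRNA in a single cell line, and linc-ADAIN's own level was not analysed here.

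LPS, a glycolipid of the Gram-negative bacterial outer membrane, is handed by the carrier LBP to CD14, and by CD14 to the pair formed by MD-2 (the product of *LY96*) and TLR4. Ligand-bound TLR4 uses TIRAP to recruit MYD88, which assembles the IRAK kinases and through TRAF6 switches on NF-κB, whereas TICAM1 (TRIF) serves the second arm that leads to IRF3 and interferon genes. IRAK3 (IRAK-M) is known mainly as a brake on this pathway, and adipocytes and their precursors are known to carry TLR4.

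Promoter letters are given for members whose levels moved. The RefSeq promoter table for GRCh38.p14 supplied 250 bases before the start of transcription for 8 of the 10 genes. No window was used for *LY96* or *TIRAP*. *IRAK2*, the member that differed in most comparisons, is shown first, followed by *TICAM1*, and capitals mark a GC box in *IRAK2* (the other-strand letters of GGGCGG) and an NF-κB site in *TICAM1*.
IRAK2, chr3:10164669-10164918, plus strand: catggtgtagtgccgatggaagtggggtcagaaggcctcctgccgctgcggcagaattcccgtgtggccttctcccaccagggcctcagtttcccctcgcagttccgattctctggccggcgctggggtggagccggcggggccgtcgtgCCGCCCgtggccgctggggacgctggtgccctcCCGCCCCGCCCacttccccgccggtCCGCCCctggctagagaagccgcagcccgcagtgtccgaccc
TICAM1, chr19:4831713-4831962, minus strand: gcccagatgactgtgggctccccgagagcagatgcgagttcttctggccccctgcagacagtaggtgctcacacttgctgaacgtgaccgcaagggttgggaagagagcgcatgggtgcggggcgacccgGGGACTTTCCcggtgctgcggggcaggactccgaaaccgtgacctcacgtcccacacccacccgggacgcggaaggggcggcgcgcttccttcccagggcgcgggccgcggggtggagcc

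For *CD14*, the gene with the largest differences, 30 bases around a match to an AP-1 site (TGANTCA) and around a match to a C/EBP site (TTNNGNAA, found on the other strand) are given, with the match in capitals.
CD14, AP-1 site, chr5:140633380-140633409, minus strand: cctggggcgccTGAGTCAtcaggacactgc
CD14, C/EBP site, chr5:140633190-140633219, minus strand: acatcccaggaTTACATAAactgtcagagg

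Both strands were searched. The *IRAK2* window held 4 GC boxes, of which a pair overlapped by 1 base, and no match to the NF-κB site. A GC box was in 7 of the 8 windows and in 42.3% of 27305 promoters of the same length. The NF-κB site was in 2 of 8 (*TICAM1*, 120 bases before the start, and *IRAK1*) and in 9.57% of promoters. The AP-1 site was in 1 of 8 (*CD14*) against 6.6%, and the C/EBP site in 2 of 8 (*CD14* and *TICAM1*) against 33.6%. A CCAAT box (CCAAT) was in 1 of 8 (*TLR4*) against 33.0%, and a TATA box (TATAAA) in 0 of 8 against 11.1%. These matches describe letters and not binding.

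Counts on named genes totalled 28.4 M to 53.8 M per library, and the correlation of log2 CPM (counts per 1000000) between libraries of a group was 0.97 to 0.986. Values per library are given below as CPM after TMM scaling of the libraries, in the order of replicates 1, 2 and 3. Differences are log2 fold changes with their standard error (SE) from edgeR's quasi-likelihood test, and a gene was called when the Benjamini-Hochberg adjusted p was under 0.05. The comparisons share libraries: each of the 4 groups enters both a KD and an LPS comparison. Bulk RNA cannot tell fewer cells of a type apart from less RNA per cell.

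*TLR4*, the signalling receptor (chr9:117704175-117724735 on GRCh38, plus strand), was lowest in scramble control + LPS. Its level was 16.3, 15.1 and 11.5 CPM in scramble control and 9.05, 7.40 and 7.22 CPM after LPS. In linc-ADAIN KD it was 12.4, 13.4 and 15.2 CPM, and with LPS 12.6, 18.8 and 16.7 CPM. The 3 scramble control + LPS libraries lay below the other 9, while the remaining groups overlapped one another.

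The LPS difference of *TLR4* in scramble control was −0.84 ± 0.16 (log2, SE, n = 3 against 3, edgeR adjusted p = 0.00452), and in KD 0.23 ± 0.16 (adjusted p = 0.434). KD against scramble control gave −0.063 ± 0.15 without LPS (adjusted p = 0.802) and 1.02 ± 0.18 with LPS, 2.03-fold higher (adjusted p = 0.000617). The test of the difference between the LPS effects over all 12 libraries gave 1.09 ± 0.24 (edgeR adjusted p = 0.0302). That last call was lost when any 1 of 8 libraries was left out, with adjusted p between 0.0157 and 0.095 over the 12 omissions and the difference between 0.96 and 1.23. Those 8 were replicates 1 and 2 of scramble control, 2 and 3 of scramble control + LPS, 1 and 2 of KD, and 2 and 3 of KD + LPS. Of the *TLR4* transcript, 2.6% is shared with a neighbouring gene on the same strand, ENSG00000285082.

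*CD14*, the co-receptor that captures LPS (chr5:140631728-140633700, minus strand), was scarce and showed the largest folds. Scramble control held 75, 53 and 63 counts (1.42, 1.01 and 1.35 CPM), and scramble control + LPS held 9, 14 and 15 counts (0.230, 0.462 and 0.351 CPM). The KD libraries held 43, 104 and 117 counts (1.24, 1.93 and 2.89 CPM), and KD + LPS held 63, 89 and 87 counts (1.78, 1.91 and 3.06 CPM). All 3 scramble control + LPS libraries were below every other library, and KD overlapped both scramble control and KD + LPS.

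With LPS, *CD14* was 6.45-fold higher in KD than in scramble control (2.69 ± 0.51, log2, SE, edgeR adjusted p = 0.00139). Without LPS the difference was 0.68 ± 0.39 (adjusted p = 0.221). LPS lowered it in scramble control by 1.85 ± 0.49 (adjusted p = 0.0261), and in KD the difference was 0.15 ± 0.40 (adjusted p = 0.886). The scramble control call was lost on leaving out any 1 of 5 of the 6 libraries, all but replicate 2 of scramble control + LPS, with adjusted p of 0.0316 to 0.112. The difference between the LPS effects was 2.01 ± 0.61 with an adjusted p of 0.139 (unadjusted 0.00409), so it was not called.

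*LY96*, which encodes the LPS-binding partner MD-2, was called in no comparison. Its group means ran from 4.42 ± 0.82 CPM in KD to 5.43 ± 0.83 CPM in scramble control + LPS (SD, n = 3), with libraries between 3.51 and 7.08 CPM overlapping in all groups. The KD difference was −0.26 ± 0.20 without LPS (edgeR adjusted p = 0.381) and −0.15 ± 0.28 with LPS (adjusted p = 0.757). The receptor complex therefore held both called and uncalled genes, as the plot of levels by library shows.

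**Figure D1:**
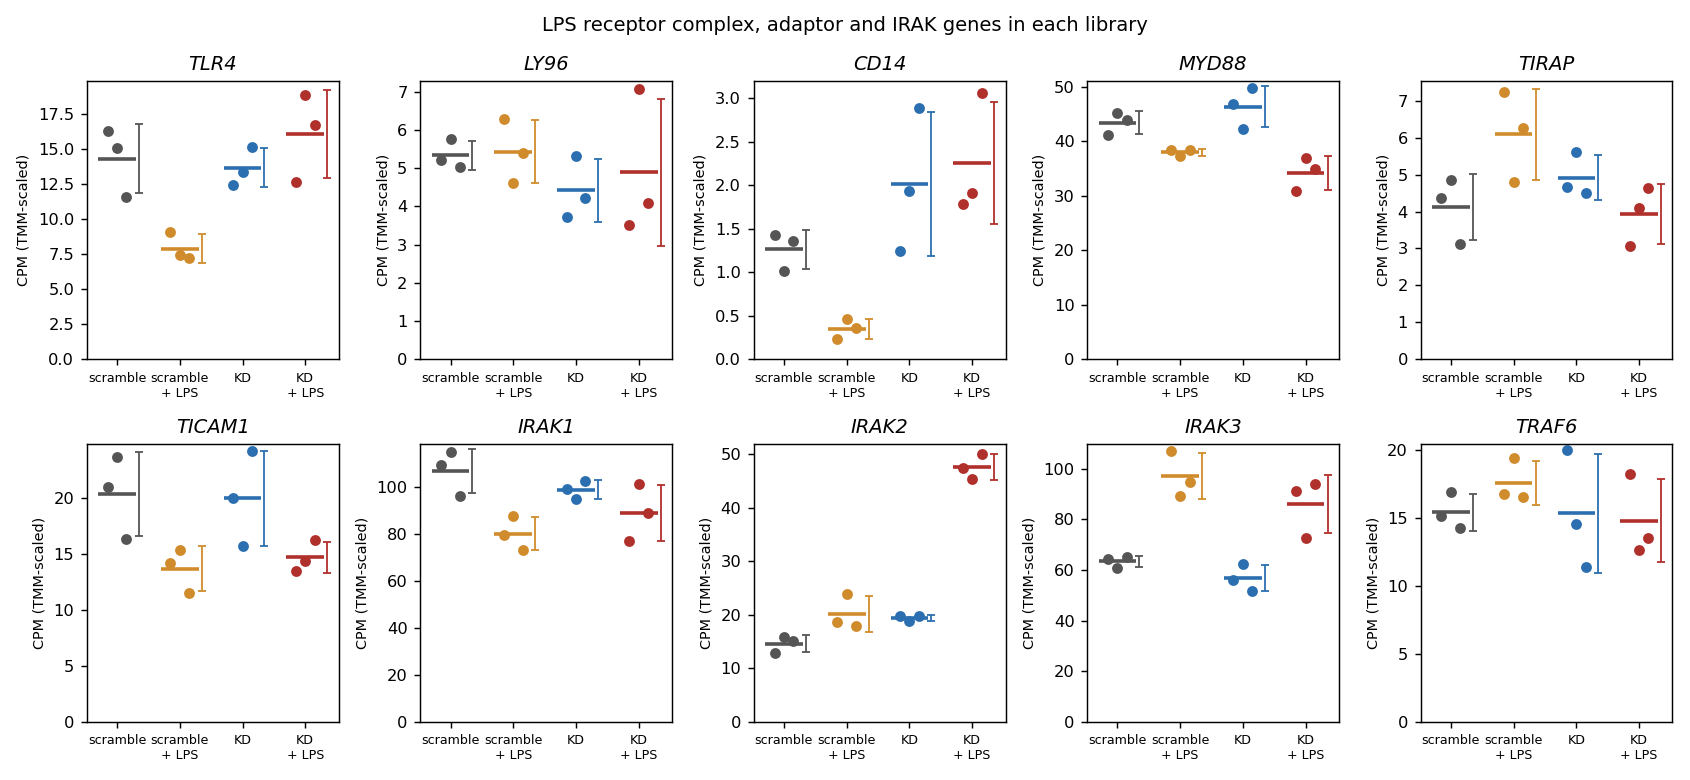
Level of each of the 10 genes in each library, in CPM after TMM scaling on an axis from 0, for the 4 groups of 3 libraries. Points are libraries, and *TLR4* and *CD14* in scramble control + LPS lie below all other libraries while *IRAK2* in KD + LPS lies above them, at 45.4 to 50.1 CPM.

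*MYD88*, the main adaptor (chr3:38138552-38143024, plus strand), was called in 1 comparison. It was at 41.2, 45.2 and 44 CPM in scramble control and 38.4, 37.3 and 38.4 CPM with LPS. KD libraries had 46.9, 42.3 and 49.8 CPM and KD + LPS libraries 30.8, 37.0 and 34.9 CPM. Within each shRNA every LPS library was below every library without LPS.

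In KD, LPS lowered *MYD88* by 0.44 ± 0.11 (log2, SE, edgeR adjusted p = 0.0147). In scramble control the difference was −0.18 ± 0.081 (adjusted p = 0.179). The difference between these effects was not called (−0.24 ± 0.13, adjusted p = 0.524), nor was either KD difference (0.096 ± 0.089 and −0.15 ± 0.10, adjusted p = 0.474 and 0.308). The KD call was lost without replicate 1 or 3 of KD or replicate 1 of KD + LPS (adjusted p = 0.0507, 0.0566 and 0.0784).

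*TICAM1*, the adaptor of the interferon arm (chr19:4815932-4831712, minus strand; promoter letters above), was lower after LPS in scramble control. Its levels were 21.0, 23.7 and 16.4 CPM in scramble control, 14.2, 15.4 and 11.5 CPM with LPS, 20.0, 15.7 and 24.2 CPM in KD and 13.5, 14.4 and 16.2 CPM in KD + LPS. The scramble control groups did not overlap, and KD and KD + LPS did. The LPS difference was −0.56 ± 0.15 in scramble control (edgeR adjusted p = 0.0305) and −0.44 ± 0.16 in KD (adjusted p = 0.101), with 0.13 ± 0.24 between them (adjusted p = 0.935). The first call was lost without replicate 1 or 2 of scramble control or replicate 3 of scramble control + LPS (adjusted p = 0.0895, 0.164 and 0.125). KD differences were −0.027 ± 0.17 and 0.10 ± 0.15 (adjusted p = 0.931 and 0.684).

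*TIRAP*, the adaptor that brings MYD88 to the membrane, was called nowhere. Its means were 4.11 ± 0.90 CPM in scramble control, 6.09 ± 1.23 CPM with LPS, 4.92 ± 0.60 CPM in KD and 3.93 ± 0.81 CPM in KD + LPS (SD, n = 3). With LPS every KD library was below every scramble control library (−0.64 ± 0.25, edgeR adjusted p = 0.0782). Leaving out replicate 2 of scramble control + LPS brought the adjusted p to 0.0444. Of its transcript, 16.5% lies opposite *TIRAP-AS1* and 11.9% opposite ENSG00000254905. The library kit keeps strand but the strand setting of the counting was not given in the sources used here, so these reads may not be separable.

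*IRAK2*, a kinase that joins the MYD88 complex and sustains its signal (chr3:10164919-10243745, plus strand), was called in all 4 group comparisons. It was at 12.8, 15.8 and 15.1 CPM in scramble control and 18.7, 23.9 and 17.8 CPM with LPS. In KD it was 19.8, 18.8 and 19.8 CPM, and in KD + LPS 47.4, 45.4 and 50.1 CPM. KD + LPS lay above all other groups, scramble control lay below all, and KD overlapped scramble control + LPS.

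LPS raised *IRAK2* 2.45-fold in KD (1.29 ± 0.10, log2, SE, edgeR adjusted p = 6.81e-07) and by 0.48 ± 0.14 in scramble control (adjusted p = 0.0368). KD raised it 1.34-fold without LPS (0.42 ± 0.12, adjusted p = 0.0189) and 2.37-fold with LPS (1.24 ± 0.12, adjusted p = 4.27e-06). The LPS effects differed by 0.82 ± 0.17 (adjusted p = 0.0196). Calls that leaned on single libraries were the KD effect without LPS, lost without replicate 1 of scramble control or of KD (adjusted p = 0.0834 and 0.0504), and the LPS effect in scramble control. The latter was lost without any 1 of the scramble control libraries or replicate 2 of scramble control + LPS (adjusted p up to 0.131). The difference of LPS effects was lost without replicate 2 of scramble control, 3 of scramble control + LPS or 3 of KD + LPS (adjusted p = 0.0738, 0.0529 and 0.0603).

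*IRAK3*, the brake (chr12:66189195-66254622, plus strand), rose with LPS under both shRNAs. Levels were 64.2, 61.0 and 65.0 CPM in scramble control, 107, 89.4 and 94.9 CPM with LPS, 56.2, 62.3 and 51.8 CPM in KD and 91.0, 72.8 and 94.0 CPM in KD + LPS. Groups with and without LPS did not overlap. The LPS difference was 0.63 ± 0.085 in scramble control (edgeR adjusted p = 0.000423) and 0.60 ± 0.11 in KD (adjusted p = 0.00208), and the difference between them was −0.020 ± 0.14 (adjusted p = 1). KD differences were −0.16 ± 0.087 without and −0.18 ± 0.11 with LPS (adjusted p = 0.219 and 0.253).

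*IRAK1*, the kinase that joins MYD88 early (chrX:154010506-154019902, minus strand), fell after LPS in scramble control. It was at 109, 115 and 96.3 CPM in scramble control, 79.4, 87.6 and 73.3 CPM with LPS, 98.9, 94.7 and 103 CPM in KD and 77.1, 101 and 88.7 CPM in KD + LPS. LPS libraries lay below those without LPS in scramble control, and the KD groups overlapped. The LPS difference was −0.40 ± 0.091 in scramble control (edgeR adjusted p = 0.0121) and −0.15 ± 0.097 in KD (adjusted p = 0.39), with 0.26 ± 0.14 between them (adjusted p = 0.509). The call was lost without replicate 2 of scramble control or 3 of scramble control + LPS (adjusted p = 0.0818 and 0.0638).

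*TRAF6*, the ubiquitin ligase that relays the signal to NF-κB, was called in no comparison. Its libraries ran from 11.4 to 20.0 CPM, with group means of 14.8 to 17.6 CPM. Its largest difference, −0.25 ± 0.16 for KD with LPS, had an edgeR adjusted p of 0.275.

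**Figure D2:**
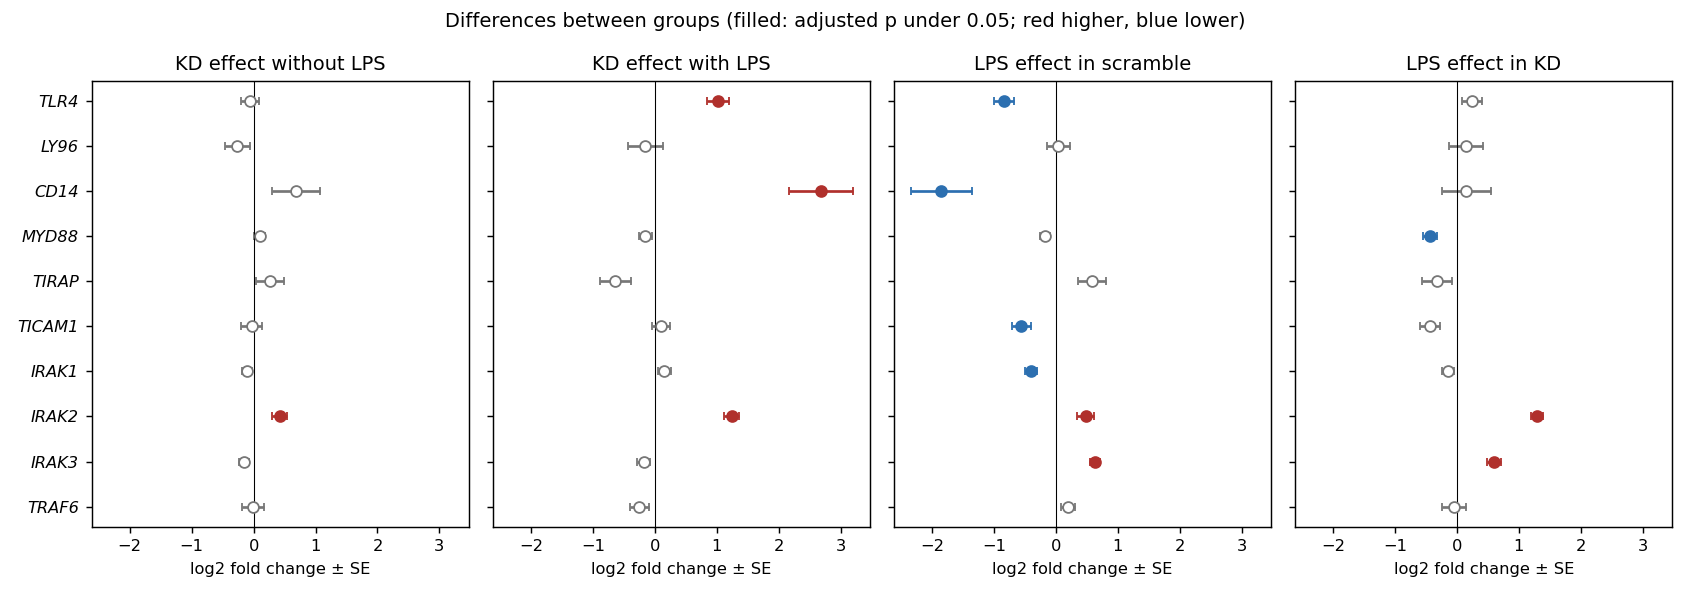
Log2 fold change with SE of each of the 10 genes in the comparisons of groups, from edgeR (3 libraries against 3). Filled points have an adjusted p under 0.05, red for higher and blue for lower, and *CD14* in KD against scramble control with LPS lies farthest from 0, at 2.69.

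Counted together, 1 of the 10 genes was higher in KD without LPS and 0 lower, against 12.1% higher and 15.1% lower of the 16217 genes tested. None of the 10 was called with at least 2-fold, against 7.77% of all. With LPS, 3 of 10 were higher in KD (*TLR4*, *CD14* and *IRAK2*) and 0 lower, against 12.7% and 14.2%, and all 3 were at least 2-fold against 8.48%. LPS in scramble control gave 2 of 10 higher (*IRAK2* and *IRAK3*) and 4 lower (*TLR4*, *CD14*, *TICAM1* and *IRAK1*), against 5.9% and 8.38%, with 1 at least 2-fold (*CD14*) against 2.68%. LPS in KD gave 2 higher (*IRAK2* and *IRAK3*) and 1 lower (*MYD88*), against 5.32% and 6.03%, with 1 at least 2-fold (*IRAK2*) against 2.25%. The test of the difference of LPS effects called 2 of 10 higher in KD (*TLR4* and *IRAK2*) and 0 lower, against 0.943% and 0.332%. Beside the counts of 0, the genes lower at an unadjusted p under 0.05 were 0 for KD without LPS, 1 for KD with LPS and 1 for the difference of LPS effects, *TIRAP* in both. DESeq2 called the same 15 differences as edgeR, in the same directions.

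The members' median log2 difference stayed near that of all genes tested in the KD comparisons, at −0.017 against 0.024 without LPS and −0.024 against 0.025 with LPS. It was −0.069 against 0.020 for LPS in scramble control and 0.048 against 0.0099 for LPS in KD. Rises and falls offset each other in these medians. Without regard to sign, the median difference in KD was 0.132 against 0.359 without LPS and 0.214 against 0.363 with LPS. For LPS it was 0.521 against 0.258 in scramble control and 0.28 against 0.254 in KD. Without TMM, scaling by library size moved the median of all genes in KD without LPS by 0.10 on the log2 scale, and 61.4% of called genes were then higher in place of 44.5%. The same scaling gave 59.2% in place of 47.2% for KD with LPS and 35.2% in place of 46.9% for LPS in KD.

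Divided by transcript length (CPM per kilobase of the canonical transcript, GENCODE 44), the order in scramble control was *IRAK1* at 29.8 ± 2.63, *MYD88* at 16.3 ± 0.78 and *LY96* at 9.55 ± 0.68 (SD, n = 3). *IRAK3* (7.61) and *TICAM1* (7.59) followed and overlapped, then *IRAK2* (4.24). *TRAF6* (1.95) and *TIRAP* (1.88) overlapped, and *TLR4* (1.13) and *CD14* (0.931) were last, also overlapping. The receptor and co-receptor were the lowest per length, with *LY96* above them. Over the merged exons of each gene *TIRAP* (0.584) came below both *TLR4* (1.08) and *CD14* (0.766). In KD + LPS *IRAK2* stood at 13.9 ± 0.70, second after *IRAK1*, overlapping *MYD88* at 12.8 ± 1.18. In scramble control + LPS *TLR4* was at 0.622 ± 0.080 and *CD14* at 0.257 ± 0.086.

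**Figure D3:**
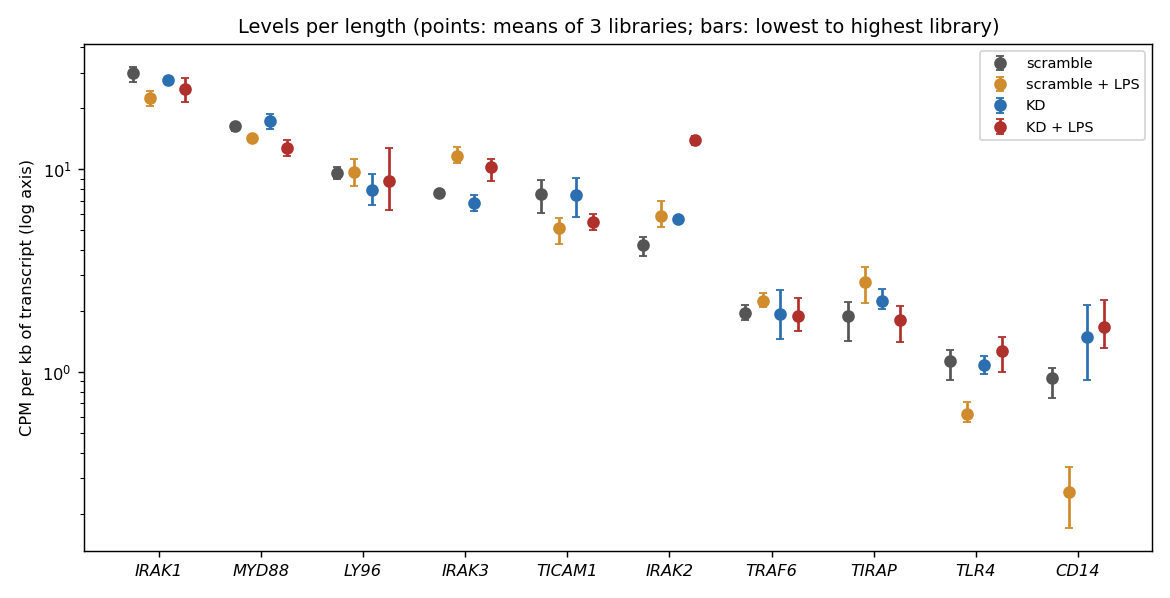
Level per transcript length of the 10 genes in the 4 groups, as CPM per kilobase on a log axis. Points are means of 3 libraries and bars run from the lowest to the highest library, with *IRAK1* highest in each group and *TLR4* or *CD14* lowest.

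The other genes of the pathway were taken from 76 genes in lists by role, and are described by counts beside the share of all genes tested. Of the NF-κB target genes, 11 of 12 rose with LPS in scramble control (median log2 1.83) and 11 of 12 in KD (median 2.16), against 5.9% and 5.32% of all genes and a median of all genes of 0.020 and 0.0099. In KD against scramble control, 9 of the 12 were higher without LPS (median 0.81) and 10 with LPS (median 1.00), against 12.1% and 12.7% of all genes. *IL1B*, a cytokine, was higher in KD by 3.31 ± 0.32 without LPS and 4.50 ± 0.21 with LPS (edgeR adjusted p = 1.39e-05 and 4.08e-09). *CCL20*, a chemokine, rose with LPS by 3.83 ± 0.17 in scramble control and 3.65 ± 0.12 in KD (adjusted p = 1.52e-07 and 4.06e-11). *IL6* and *CCL2* rose more with LPS in KD, by 1.17 ± 0.13 and 1.15 ± 0.23 (adjusted p of the difference 0.000139 and 0.0163). *SOD2* rose less, with a difference of −0.81 ± 0.11 (adjusted p = 0.000992). Its level was higher in KD in both conditions, by 1.19 ± 0.090 without LPS and 0.37 ± 0.062 with LPS (edgeR adjusted p = 1.79e-06 and 0.000487).

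Among the genes downstream of *MYD88*, 6 of 14 rose and 1 fell with LPS under each shRNA, against 5.9% higher and 8.38% lower of all genes in scramble control and 5.32% and 6.03% in KD. The NF-κB subunits *REL* and *NFKB1* rose by 1.99 ± 0.12 and 1.29 ± 0.098 in scramble control, and the kinase *MAP3K8* by 1.45 ± 0.11 (edgeR adjusted p = 8.07e-07, 5.65e-06 and 5.21e-06). In KD these rises were 2.16, 1.67 and 1.72, and the difference of LPS effects was called for none of the 14. In KD without LPS 2 of the 14 were lower, a share near the 15.1% of all genes. They were *MAP3K7* (TAK1), by 0.41 ± 0.075, and *TAB2*, by 0.29 ± 0.080 (adjusted p = 0.00166 and 0.017). With LPS 3 of 14 were higher in KD (*IKBKB*, *REL* and *NFKB1*, by 0.57, 0.30 and 0.28), against 12.7% of all genes.

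On the *TICAM1* arm, 2 of 8 genes rose with LPS in scramble control (*TBK1* and *TANK*, by 0.47 and 0.38) and 2 in KD (*IRF7* and *TANK*, by 1.14 and 0.43), against 5.9% and 5.32% of all genes. In KD without LPS 1 of 8 was higher (*TBK1*, by 0.44) and 1 lower (*TRAF3*, by 0.36), shares near the 12.1% and 15.1% of all genes. With LPS 2 of 8 were lower in KD (*TRAF3* by 0.35 and *RIPK1* by 0.43), against 14.2%. Of the IRF3 and interferon target genes, 3 of 8 tested rose with LPS under each shRNA, against the same 5.9% and 5.32%. They were *CCL5*, *IFIT2* and *IFIT3* in scramble control, and *CCL5*, *IFIT3* and *CXCL10* in KD. *CCL5* rose by 3.02 ± 0.38 in scramble control and 4.25 ± 0.19 in KD (edgeR adjusted p = 0.000253 and 1.59e-09). The LPS differences of *IFIT2* and *IFIT3* were 1.497 and 1.461 in scramble control. In KD they were smaller, at 0.6816 (not called) and 0.9037. The difference of LPS effects was not called for *CCL5*, *IFIT2* or *IFIT3* (edgeR adjusted p = 0.0957, 0.297 and 0.364). In KD against scramble control, 3 of 6 tested were higher without LPS and 3 of 8 with LPS, against 12.1% and 12.7% of all genes. None was lower, against 15.1% and 14.2%. *IFIT2* was higher in KD by 1.31 without and 0.50 with LPS (edgeR adjusted p = 0.00192 and 0.0447), and *CCL5* by 1.77 and 3.02. *IFIT3* was called in neither condition (0.28 and −0.27).

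Of the 12 other genes listed as brakes on the pathway, 7 were not called in each KD comparison. Among all genes, 11806 of 16217 were not called without LPS and 11689 of 15981 with LPS. For LPS, 9 were not called in scramble control and 8 in KD, against 13646 of 15920 and 14334 of 16169 genes. LPS calls in scramble control were 2 higher and 1 lower, against 5.9% and 8.38% of all genes. In KD they were 3 higher and 1 lower, against 5.32% and 6.03%. Of those called, *TNFAIP3* (A20), which removes ubiquitin chains, rose with LPS by 1.87 ± 0.096 in scramble control and 2.23 ± 0.081 in KD (edgeR adjusted p = 3.34e-07 and 1.57e-10). The difference between these rises was not called (adjusted p = 0.195). *IL1RL1*, the receptor of IL-33, was 11-fold higher in KD without LPS and 10.7-fold higher with LPS (adjusted p = 9.29e-09 and 1.47e-10). *PELI1* and *PELI2*, E3 ligases that act on IRAK kinases, were higher in KD in both conditions. In KD without LPS 3 of the 12 listed genes were higher (*IL1RL1*, *PELI1* and *PELI2*), against 12.1% of all genes. The 2 lower ones were *TOLLIP* by 0.33 and *SARM1* by 0.53 (edgeR adjusted p = 0.0147 and 0.00583), against 15.1%. With LPS 4 were higher (the same 3 and *CYLD*), against 12.7%, and 1 was lower (*SARM1*, by 0.82), against 14.2%. The median over the 12 listed genes in KD was 0.089 without and 0.24 with LPS.

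Upstream, 6 of 9 delivery, accessory and chaperone genes had enough counts to be tested without LPS, and 3 of these 6 were lower in KD, against 15.1% of all genes. They were the scavenger receptor *CD36* by 1.14 ± 0.26 (edgeR adjusted p = 0.00596), and the chaperone genes *CNPY3* and *HSP90B1* by 0.39 and 0.24. With LPS 7 were tested, and 2 were lower and 1 higher, against 14.2% and 12.7%. *CD36* was lower by 1.80 ± 0.17 (adjusted p = 3.6e-06) and *LBP* by 0.41 ± 0.14 (adjusted p = 0.0486), while *TMED7* was 0.36 higher. The *LBP* libraries overlapped, at 105 to 164 CPM in scramble control + LPS and 87 to 118 CPM in KD + LPS. Without LPS *LBP* was not called (0.0063 ± 0.22, edgeR adjusted p = 0.989). Of 11 other receptors that use these adaptors, 10 were tested without LPS and 11 with LPS, and in each case 2 were lower and 1 higher in KD, against 15.1% and 12.1% without LPS and 14.2% and 12.7% with LPS. *TLR3* and *IL1RAP* were the lower ones in both conditions, *IL1RAP* by 1.92 ± 0.10 without LPS (adjusted p = 1.53e-07). The higher one without LPS was *IL1R1*, the IL-1 receptor, by 0.26 ± 0.079 (adjusted p = 0.0263). With LPS it was *TLR9* (adjusted p = 0.0484), named after its values were seen, which had 0 counts in each scramble control + LPS library and 0 to 35 in KD + LPS, so the groups overlapped. LPS lowered *IL1RAP* by 0.96 ± 0.076 in scramble control, and its LPS effect was 0.82 ± 0.14 higher in KD (adjusted p = 0.0072). *TLR2*, looked at after its values were seen, had 1 to 40 counts per library.

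**Figure D4:**
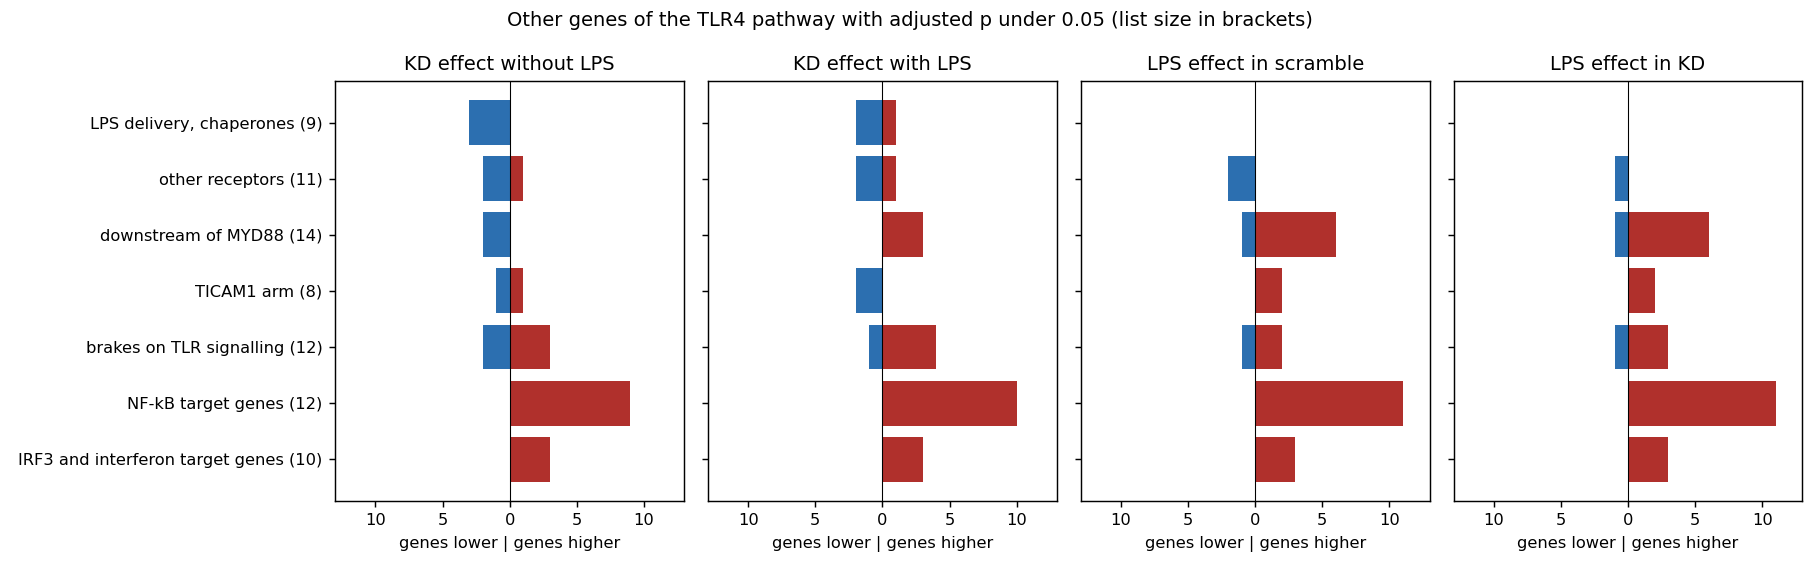
Number of genes in each pathway list with an edgeR adjusted p under 0.05, lower to the left and higher to the right of 0, by comparison, with the list size in brackets. NF-κB target genes have the most calls, 11 of 12 higher with LPS under both shRNAs.

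*CD14* is also a monocyte and macrophage gene, so a list of 10 genes of those cells was set beside it. *AIF1* and *TYROBP* were at 0 counts in all 12 libraries, *ITGAM* was at 0 outside KD and at most 6 counts there, and *PTPRC* (CD45), *SPI1* and *LYZ* reached at most 12, 3 and 17 counts. The other members were detected: *FCER1G* had 34 to 185 counts per library, *CSF1R* 0 to 60, *CD163* 98 to 3672 and *CD68* 790 to 2959. The summed level of the list was 59 to 62.6 CPM in scramble control, 61.8 to 74.6 with LPS, 89.6 to 121 in KD and 82.1 to 111 in KD + LPS. *CD163*, a haemoglobin scavenger receptor named here after its values were seen, was higher in KD without LPS by 3.99 ± 0.20 (log2, SE, edgeR adjusted p = 9.77e-08), at 68.6 against 4.33 CPM, and *CD68* was lower by 0.78. With LPS, the condition in which *CD14* was called between KD and scramble control, *CD163* was higher in KD by 4.11 ± 0.18 (adjusted p = 2.59e-09) and *CD68* lower by 1.25 ± 0.11 (adjusted p = 1.41e-06). *FCER1G* differed by 0.67 ± 0.42 and *CSF1R* by −0.20 ± 1.18 there, neither called (adjusted p = 0.276 and 0.93). The part of these cells in the *CD14* difference was not tested.

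Adipocyte markers moved with the knockdown. Of 10 genes, 7 were lower in KD without LPS and 8 with LPS, against 15.1% and 14.2% of all genes, and 0 were higher. *PPARG*, *FABP4* and *ADIPOQ* were among those lower in both conditions. The study reports the opposite direction for the mRNA and protein of adipogenic markers, among them PPARγ, FABP4 and adiponectin. The reason for this disagreement was not tested. The summed level of the 10 genes was 3200 to 4430 CPM in scramble control, 3700 to 4290 with LPS, 642 to 1880 in KD and 519 to 1210 in KD + LPS. Sums over 8 stromal and preadipocyte genes were 5860 to 7260, 5560 to 6280, 7790 to 9290 and 8660 to 9930 CPM in that order of groups. Of 7 tested, 3 were higher and 3 lower in KD in each condition, against 12.1% and 15.1% of all genes without LPS and 12.7% and 14.2% with LPS. Without LPS *DCN*, *COL1A1* and *PDGFRA* were 1.84-, 1.57- and 1.2-fold higher, and *THY1*, *ENG* and *PDGFRB* 5.15-, 2.56- and 1.86-fold lower. Sums over 5 endothelial genes were 23.6 to 27.1, 15.3 to 17, 11.8 to 12.3 and 8.45 to 13.2 CPM. Of 4 tested, 2 were lower in KD without LPS, against 15.1% of all genes. With LPS 3 were lower and 1 higher, against 14.2% and 12.7%. The higher one was *KDR*, by 29.6-fold, from only 2 to 6 counts per scramble control + LPS library to 94 to 120 in KD + LPS. The part of these markers in the KD differences of *TLR4*, *CD14* and *IRAK2* was not tested.

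Genes with the pattern most like a receptor gene were ranked by Pearson r of log2 CPM over the 12 libraries among 11810 genes, as a description, since the points share libraries and groups. For *TLR4* they were *AEBP1* (0.945), *IP6K1* (0.944) and *UBE2S* (0.919), for *CD14* *FRMD6* (0.943), *TPBG* (0.935) and *SSH1* (0.935), and for *LY96* *ARGLU1* (0.871), *NMB* (0.843) and *BRCC3* (0.78).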

How the data were processed

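Poly(A) RNA from 12 libraries was prepared with a stranded Illumina kit. The authors pseudoaligned reads to GRCh38 transcripts with kallisto 0.44.0 (bcl2fastq 2.19 and DESeq2 1.32.0 are also in the submitters' processing notes) and deposited estimated counts summed per gene name, not normalized for depth or length. The values are whole numbers. A row without a gene name (0.235% to 0.306% of counts) was left out. All columns were mapped to samples by their labels.

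In R 4.3.3, libraries were scaled by TMM and each gene whose counts summed to 10 or more in a fit was tested by the quasi-likelihood F test of edgeR 4.0.16, p being adjusted by Benjamini-Hochberg, on 6 libraries for each of the 4 comparisons of groups and on 12 for the interaction. SE is the size of the log2 fold change divided by the square root of F. The study's methods name DESeq2, and DESeq2 1.42.0 was an alternative, with other scalings and filters, all 12 libraries in the fit, the replicate block, and each library left out. On simulated data with 200 changed genes the test without LPS recovered 95% over 15810 genes (8.21% of calls false). The interaction recovered 96% over 16755 genes (4.95% false). The simulated rises had a median log2 of 2.01 without LPS and 1.99 for the interaction. Among the members' called differences only *CD14* in KD with LPS, at 2.69, was that large. These shares therefore do not show how often smaller differences are missed.

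The members and lists were chosen with earlier results of these data known. Named were all 10 members, up to 3 called genes per list and comparison with a mean of at least 50 counts, and the 3 genes most like each receptor gene. Further genes of the lists were named beyond this rule to give both directions of a result. The study gives the RNA-seq of the knockdown as N = 1 in triplicate, and no label says that replicates were separate cultures. The p-values therefore measure the spread between libraries within an experiment, which may be technical, and not between independent experiments. No replicates agreed within sampling noise (chi-square per degree of freedom 17.1 to 42.6). With 3 against 3, an exact permutation test cannot go below 0.1 and was not used.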

Additional observations from a re-analysis of the deposited data

Results flagged for a closer look

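The LPS effect on *TLR4* was 1.09 higher in linc-ADAIN KD on the log2 scale in the test of the difference itself (edgeR adjusted p = 0.0302). This call was lost on leaving out any 1 of 8 libraries (adjusted p up to 0.095). *TLR4* was lower after LPS in scramble control, and its LPS difference in KD was not called. The LPS effect on *IRAK2* was larger in KD by 0.82 (edgeR adjusted p = 0.0196), with a rise called under both shRNAs. The call of this difference was lost on leaving out any 1 of 3 libraries (adjusted p up to 0.0738).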

How the results depend on the processing

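Of 50 results (10 genes in 5 comparisons), 28 kept their direction and side of 0.05 in every alternative. Of the 15 called, 7 did so, 8 lost the call in at least 1 alternative and 0 reversed. The 7 were *TLR4*, *CD14* and *IRAK2* in KD with LPS, *TLR4* and *IRAK3* for LPS in scramble control, and *IRAK2* and *IRAK3* for LPS in KD. Scaling by library size alone took *IRAK2* for LPS in scramble control to an adjusted p of 0.0534. *TIRAP* (KD with LPS, 0.0444 without scramble control + LPS replicate 2) and *TICAM1* (LPS in KD, 0.0497 with no count filter and 0.0238 without KD replicate 2) were gained.

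Reversals were all in uncalled differences. In KD without LPS, library size scaling gave 0.041 for *TLR4*, 0.075 for *TICAM1* and 0.094 for *TRAF6*, and *TRAF6* was also 0.00011 with DESeq2 and 0.0014 with filterByExpr. Leaving out 1 library at a time gave −0.21 to 0.042 (*TLR4*), −0.19 to 0.12 (*TICAM1*) and −0.25 to 0.17 (*TRAF6*) in KD without LPS, and −0.53 to 0.042 (*LY96*) and −0.0089 to 0.19 (*TICAM1*) in KD with LPS. It gave −0.077 to 0.14 (*LY96*) for LPS in scramble control, and −0.22 to 0.34 (*LY96*), −0.13 to 0.49 (*CD14*) and −0.23 to 0.18 (*TRAF6*) for LPS in KD. For the interaction it gave −0.25 to 0.29 (*LY96*), −0.029 to 0.28 (*TICAM1*) and −0.10 to 0.088 (*IRAK3*). The cause was not tested.

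With 1 library left out, the members called were 0 to 1 (KD without LPS), 2 to 5 (LPS in scramble control) and 0 to 2 (interaction). All genes called numbered 1187 to 2106 for LPS in scramble control (2274 with all) and 92 to 243 for the interaction (219 with all), which DESeq2 put at 475 and no count filter at 431. Lengths over merged exons changed scramble control levels per kilobase to 0.766 (*CD14*), 25.0 (*IRAK1*), 6.54 (*IRAK3*), 10.4 (*MYD88*) and 0.584 (*TIRAP*).

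Samples with the same replicate number correlated by −0.14 to 0.246 in their deviations, so the numbers were not taken as pairs, and not every sample correlated best with its own number. With the replicate block the genes called were 3857 (KD without LPS, 4411 without the block), 4636 (KD with LPS, 4292), 3260 (LPS in scramble control, 2274), 2238 (LPS in KD, 1835) and 231 (interaction, 219). Under the replicate block *TICAM1* for LPS in KD reached an adjusted p of 0.0498, and no other member's call changed. Depth limits *CD14* most, at 9 to 117 counts per library.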

Other observations

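*TICAM2*, the partner adaptor of *TICAM1*, and *TLR9* were looked at after their values were seen. *TICAM2* ranged from 19 to 426 counts per library, and its group means were 6.01 ± 1.99 CPM in scramble control, 2.49 ± 2.31 with LPS, 4.08 ± 2.70 in KD and 6.45 ± 4.05 in KD + LPS (SD, n = 3). It shares exons with a readthrough gene counted separately, *TMED7-TICAM2*, so its counts are uncertain. Counts of *TMED7*, the other gene of that readthrough, may be affected in the same way, to an extent that was not measured. *TLR9* had 0 to 8 counts in scramble control, 0 in each scramble control + LPS library (which allows up to 3 counts, for counting error only), 12 to 42 in KD and 0 to 35 in KD + LPS.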
